A study of Mus musculus with 12 samples.

Results

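Glands of Chi3l1 knockout mice were compared with wild-type glands in a mouse model of breast tumour initiation, using 8 of the 12 RNA sequencing libraries of the series. The compared libraries were the 4 with the genotype label MIC Chi3l1 ko and the 4 labelled MIC WT, and 4 further libraries carried the label MIC Stat3 ko. All 3 groups were female FVB/N mice of the MIC line, whose mammary epithelial cells make polyoma middle T and Cre once doxycycline is given. All were treated with doxycycline at 2 mg/ml, the titles carry 2 wk, and hyperplastic mammary gland was taken. Oncogene, Cre and doxycycline were therefore shared by the wild-type group. How the Chi3l1 alleles were altered, in which cells, the age of the mice and the hour of tissue collection are not given in the sources used here. The labels do not say whether the 4 samples of a group came from separate mice, so p-values measure the spread between these samples, which may be technical. Of 54532 genes in the deposited table, 13643 had at least 1 FPKM (fragments scaled by gene length and library total) in at least 4 of the 12 libraries, and these were tested.

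CHI3L1 is a secreted member of the chitinase-like family that binds chitin-type sugars without cutting them. It signals through a receptor complex that includes IL13RA2 and TMEM219, and it binds CD44 and galectin-3. Macrophages, neutrophils and epithelial tumour cells are known sources. The title of the series concerns CHI3L1, the DNA webs that neutrophils release (neutrophil extracellular traps, NETs) and the exclusion of T cells from breast tumours, and the gene lists used here follow these themes.

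The 8 libraries held 16217143 to 22607123 counts on genes, with a median of 18080553.5. Mitochondrial genes took 1.17% ± 0.233 of counts in WT and 1.52% ± 0.529 in Chi3l1 ko (SD, n = 4), with Chi3l1 ko 2 at 2.22%. The tissue label fitted its markers, as the epithelial genes Epcam (553 ± 33.0 FPKM in WT, 555 ± 62.2 in Chi3l1 ko) and Krt8 (722 ± 157 and 671 ± 88.9) were abundant in every library. Marker genes of some other tissues varied widely between libraries. The skeletal actin gene Acta1 ran from 5.03 to 1224 FPKM in WT and from 15.7 to 3693 in Chi3l1 ko. Chi3l1 ko 2 held brown fat genes, and WT 1 and WT 3 held epidermal keratins.

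The upstream sequences of 4 genes are shown: the targeted gene Chil1 and the circadian clock genes Per3, Tef and Per1. These clock genes were chosen after their values were seen, and limma called 0 clock genes in Chi3l1 ko against WT. Each is the 250 bases before the start site in RefSeq (GRCm38.p6), read 5′ to 3′ on the gene's strand. Capitals mark matches on either strand to 3 motifs that do not overlap there: the E-box CACGTG read by CLOCK and ARNTL, the D-box TTATGNAA read by DBP, TEF and HLF, and the STAT motif TTCNNNGAA. Windows are chr1:134181906-134182155 (plus) for Chil1, chr4:151044666-151044915 (minus) for Per3, chr15:81802423-81802672 (plus) for Tef and chr11:69098699-69098948 (plus) for Per1.
Chil1: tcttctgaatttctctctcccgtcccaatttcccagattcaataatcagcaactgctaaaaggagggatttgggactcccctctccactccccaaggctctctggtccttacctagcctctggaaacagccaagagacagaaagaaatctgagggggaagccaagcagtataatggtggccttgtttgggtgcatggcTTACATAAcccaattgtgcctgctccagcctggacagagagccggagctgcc
Per3: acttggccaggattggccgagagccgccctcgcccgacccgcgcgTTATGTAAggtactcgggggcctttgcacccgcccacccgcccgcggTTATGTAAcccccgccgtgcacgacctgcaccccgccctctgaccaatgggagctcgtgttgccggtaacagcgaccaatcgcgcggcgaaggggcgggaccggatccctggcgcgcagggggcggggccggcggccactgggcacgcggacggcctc
Tef: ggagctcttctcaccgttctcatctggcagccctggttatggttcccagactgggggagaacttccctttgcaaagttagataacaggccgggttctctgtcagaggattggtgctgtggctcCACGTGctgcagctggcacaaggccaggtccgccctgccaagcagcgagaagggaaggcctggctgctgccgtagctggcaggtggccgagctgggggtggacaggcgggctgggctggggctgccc
Per1: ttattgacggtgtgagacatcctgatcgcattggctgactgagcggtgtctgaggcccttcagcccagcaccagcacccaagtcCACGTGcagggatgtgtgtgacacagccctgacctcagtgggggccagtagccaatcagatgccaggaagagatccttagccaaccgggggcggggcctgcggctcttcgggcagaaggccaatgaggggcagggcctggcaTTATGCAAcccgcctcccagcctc
Over all 32851 RefSeq promoter windows of this length, 6.02% held the E-box, 3.07% the D-box and 7.02% the STAT motif. Tef and Per1 each have 2 RefSeq windows, of which 1 is shown. The other window of Tef also holds an E-box, and that of Per1 holds the STAT motif and neither clock motif. The windows of Arntl, Clock, Npas2, Cry2, Nr1d1, Nr1d2, Hlf and Nfil3 hold none of the 3 motifs. A match describes these letters only.

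The Chi3l1 gene, listed as Chil1 (ENSMUSG00000064246, GRCm38 chromosome 1, 134182176 to 134190181, plus strand, 2804 bases), was all but absent from the knockout libraries. WT libraries held 125, 212, 160 and 107 FPKM of Chil1, from 6286, 13318, 8518 and 5734 reads. Chi3l1 ko libraries held 1, 2, 0 and 0 reads. The 3 reads came to 0.00809% of the WT level in CPM, counts scaled to equal library totals. The 95% interval was 0.00167% to 0.0236%, exact binomial on the 3 reads with the WT level held fixed, covering counting error only. Chil1 fell by 7.18 ± 0.31 on the log2(FPKM + 1) scale (moderated SE, n = 4 per group, adjusted p = 1.09e-06 by limma), lower in 4 of 4 libraries. That size depends on the value added before the logarithm and was −13.32 with edgeR. An exact two-sided permutation test gave p = 0.0286, the smallest that 4 against 4 libraries allow. In Stat3 ko, Chil1 stood at 11.7 ± 5.33 FPKM, above Chi3l1 ko by 3.54 ± 0.31 on the log2 scale (adjusted p = 0.0001, limma). Stat3 itself stood at 48.0 ± 1.93 FPKM in WT and 50.01 ± 2.67 in Chi3l1 ko.

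Beyond Chil1, no gene passed the test. limma, fitted to all 12 libraries, called 1 gene lower, 0.00733% of those tested, and 0 higher, at a Benjamini-Hochberg adjusted p under 0.05. At an unadjusted p under 0.05 it found 88 higher genes (0.645%) and 134 lower ones (0.982%). With no differences at all, that threshold would flag about 1 in 20 genes, more than the 1.63% found in either direction. edgeR also called Chil1 alone, with 192 genes at an unadjusted p under 0.05. DESeq2 called 8 genes lower and 0 higher, with 255 genes at an unadjusted p under 0.05. The 7 besides Chil1 were Hes6, Zfp36l2, Ppia, AC133103.1, Krt10, Krt15 and Igkv4-57-1. The groups overlapped in the last 3 of these: Krt10 and Krt15 were high in WT 1 and WT 3 alone, and the immunoglobulin gene Igkv4-57-1 stood at 2.70, 19.8, 0.141 and 0 FPKM in WT against 0 in all Chi3l1 ko libraries. The median difference over all tested genes was 0.00298, 51.2% of differences were positive, and 67 genes differed by at least 1 on the log2 scale. In the 12-library fit a gene's 95% interval reached a median of 0.34 to each side of its difference (quartiles 0.244 and 0.532). The spread of Stat3 ko enters these intervals, so they do not give the spread of WT and Chi3l1 ko alone. They are not adjusted for the number of genes tested, so a gene whose interval leaves out 0 could still miss the call. In 339 genes (2.48%) the 4 values of a group lay wholly outside those of the other, 153 with higher values in Chi3l1 ko (1.12%) and 186 with lower values (1.36%).

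**Figure D1:**
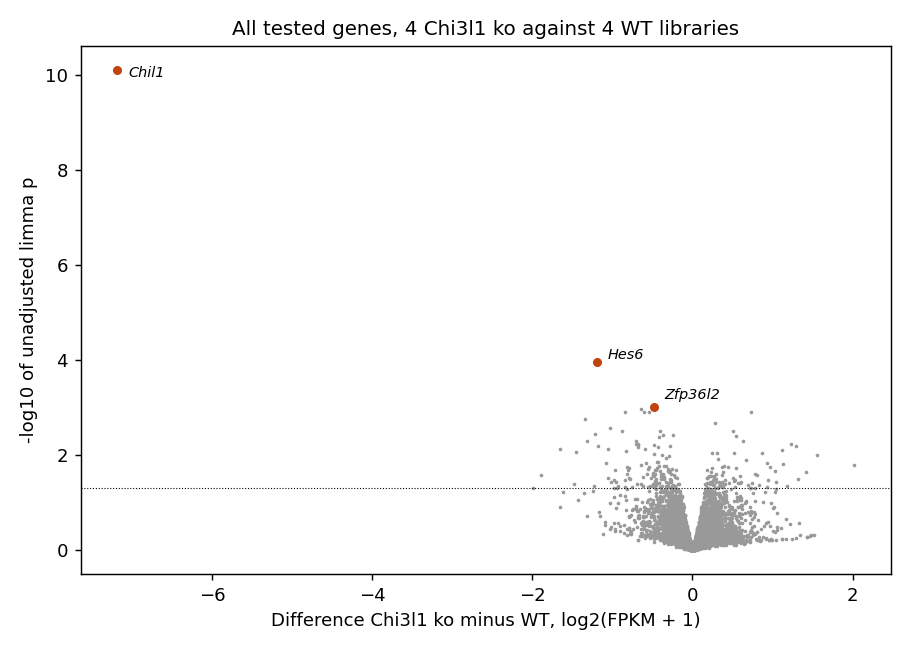
Each point is 1 of the 13643 tested genes, with the Chi3l1 ko minus WT difference in log2(FPKM + 1) on the horizontal axis and −log10 of the unadjusted limma p on the vertical axis. The dotted line marks the unadjusted threshold of 0.05. Chil1 lies alone at the upper left, at −7.18, while Hes6, the next gene by p, lies at −1.20.

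The number of calls differed between tools. With limma fitted only to the 8 compared libraries, 564 genes (4.13%) had an unadjusted p under 0.05 against 222 (1.63%) in the 12-library fit, and Chil1 was again the single call. edgeR on the 8 libraries called 0 genes higher and 1 lower, as it did on 12. DESeq2 fitted to the 8 libraries called 10 genes higher and 19 lower. The cause of the difference between tools was not tested. The authors' deposited table of Chi3l1 ko against WT lists 31 genes at an adjusted p under 0.05, 11 higher and 20 lower. Of these 31 genes in the authors' deposited table, 28 were in the test here and all 28 had the same sign there. The 12-library limma fit called 1 of the 31, and DESeq2 on the 8 libraries with no filter called all 31.

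The lower end of the ranking was led by Hes6, a transcriptional cofactor of the Hes family that opposes Hes1. WT libraries held 20.8, 23.1, 21.1 and 16.2 FPKM of Hes6, and Chi3l1 ko libraries 6.63, 6.23, 11.3 and 9.64. All 4 knockout values lay below the lowest WT value, at a mean of 41.6% of WT. The difference was −1.20 ± 0.21 on the log2 scale (95% interval −1.65 to −0.74, limma adjusted p = 0.756), and DESeq2 gave an adjusted p of 0.000586 on 12 libraries. Stat3 ko held 14.0 ± 3.25 FPKM of Hes6, between the other groups.

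Zfp36l2, an RNA-binding protein that speeds the decay of AU-rich messages, stood at 75.4, 85.8, 71.7 and 64.3 FPKM in WT and at 46.8, 52.0, 52.9 and 59.6 in Chi3l1 ko. Its difference was −0.48 ± 0.11, with no overlap, and it missed the limma threshold (adjusted p = 0.9998). DESeq2 called it on 12 libraries (adjusted p = 0.040). Stat3 ko held 75.01 ± 6.04 FPKM of Zfp36l2, and the direct limma contrast of the knockouts called it lower in Chi3l1 ko, by 0.50 ± 0.11 (adjusted p = 0.0155). That contrast called 1091 genes (8.0%) higher and 708 (5.19%) lower in Chi3l1 ko than in Stat3 ko.

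Sik1, a kinase that restrains the CREB coactivators, stood at 29.3, 30.5, 34.2 and 27.7 FPKM in WT against 16.4, 15.1, 20.4 and 26.4 in Chi3l1 ko (−0.64 ± 0.15). Dusp1, the phosphatase that switches off MAP kinases, stood at 14.8, 16.9, 22.7 and 12.8 FPKM in WT against 6.73, 9.71, 6.69 and 11.6 (−0.88 ± 0.23). In both genes the highest knockout value came close to the lowest WT value without reaching it. Neither passed limma (adjusted p = 0.9998 for both).

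**Figure D2:**
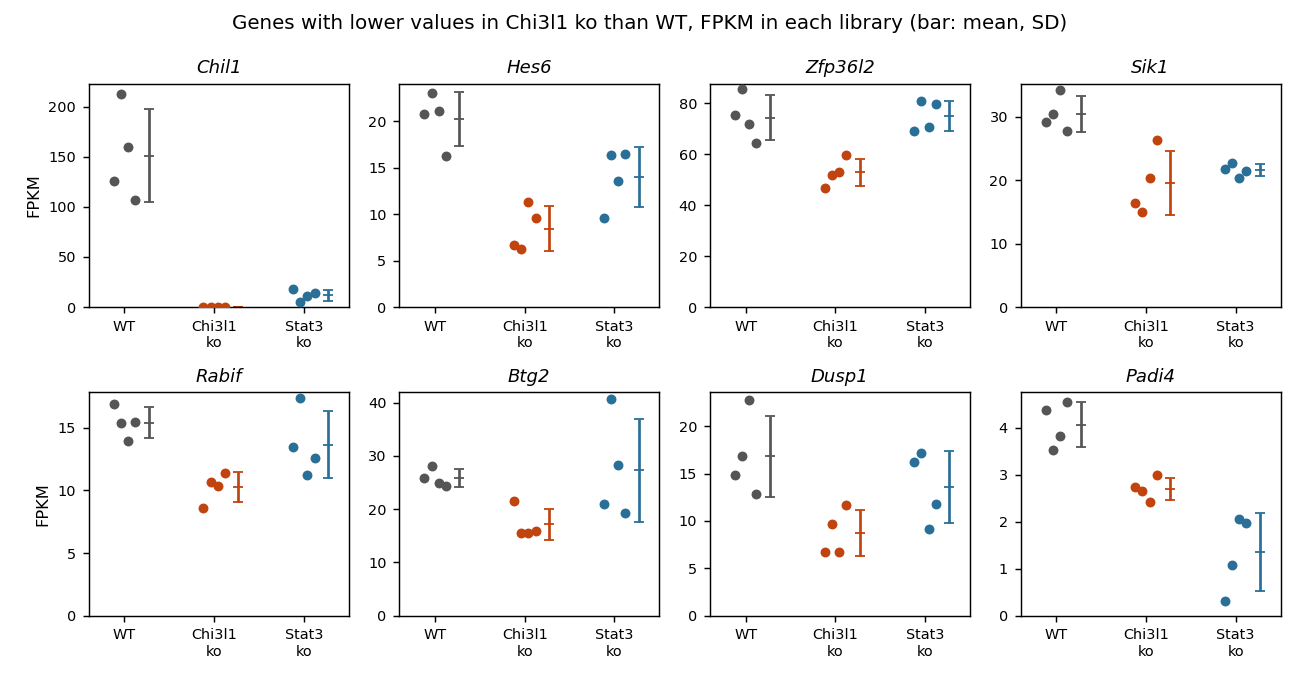
FPKM on the vertical axis, on a linear scale from 0, for 8 genes with lower values in Chi3l1 ko than in WT. Points are single libraries of WT, Chi3l1 ko and Stat3 ko, and bars show mean and SD (n = 4). Chil1 sits at or near 0 in the 4 Chi3l1 ko libraries, and in each of the other 7 genes the Chi3l1 ko points lie below all 4 WT points; Btg2 and Padi4 were added after their values were seen.

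Ppia, which encodes cyclophilin A, stood at 249.2, 304, 279 and 311 FPKM in WT against 191, 148, 203 and 209 in Chi3l1 ko. The processed pseudogene Gm10123 went the other way, from 489, 147, 303 and 327 FPKM in WT to 770, 880, 592 and 635 in Chi3l1 ko. Their differences were −0.61 ± 0.14 and 1.29 ± 0.38. In the GENCODE transcripts of GRCm38, 100% of the 441 distinct 50-base stretches of Gm10123 also occur in Ppia, so reads of Gm10123 cannot be assigned with certainty. Of the 3647 stretches of Ppia, 17.3% occur in other genes, 118 in number. Counted together, the pair stood at 1259 ± 65.5 CPM in WT and 1087 ± 79.8 in Chi3l1 ko, 86.3% of WT with no overlap. An exact permutation test of the sum gave p = 0.0286, the smallest possible. Both genes were picked by their low p in these same libraries, so that p is no independent test. The sum differed less than either gene alone. Ppia and Gm10123 moved in opposite directions, so the smaller difference of their sum does not show how reads were assigned.

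Another pseudogene, Gm10705, stood at 8.01, 13.5, 22.5 and 15.6 FPKM in WT against 6.63, 4.42, 4.13 and 4.86 in Chi3l1 ko (−1.34 ± 0.33). Of its 50-base stretches, 85.4% occur in Ube2l3, a ubiquitin-conjugating enzyme gene, which stood at 19.8 ± 1.31 FPKM in WT and 20.2 ± 1.04 in Chi3l1 ko. Gm10705 alone stood at 7.50 ± 3.14 CPM in WT and 2.49 ± 0.608 in Chi3l1 ko, against 125.5 and 126.9 for Ube2l3. Gm10705 and Ube2l3 together stood at 133 ± 4.27 and 129 ± 6.74 CPM (exact permutation p = 0.371). Ube2l3 makes up most of that sum, so the sum cannot show where the reads of Gm10705 belong. Hes6 and Rabif shared 0% of their stretches with other genes.

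Among genes with higher values in the knockout and a mean of at least 5 FPKM there, Cipc had the lowest unadjusted p (0.00212, limma). It encodes a protein that binds CLOCK and represses it, and stood at 7.30, 6.88, 7.16 and 7.25 FPKM in WT against 9.47, 8.67, 8.67 and 8.96 in Chi3l1 ko. The difference of 0.29 ± 0.07 was small and the groups did not overlap. In Stat3 ko, at 9.23 FPKM, Cipc was called higher than in the same WT libraries (0.32, adjusted p = 0.0174, limma).

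Cpt1a, which governs entry of long-chain fatty acids into mitochondria, stood at 8.03, 8.33, 8.07 and 9.11 FPKM in WT against 13.1, 10.8, 11.4 and 15.0 in Chi3l1 ko (0.52 ± 0.17). Stat3 ko held 18.1 FPKM and was called higher than the same WT libraries (0.99, adjusted p = 0.00531, limma), where 14.0% of all tested genes were called in either direction. Tagap1 stood at 5.40 ± 0.512 FPKM in WT and 8.36 ± 1.40 in Chi3l1 ko. Ube2f, which conjugates NEDD8, stood at 7.10 ± 0.517 and 9.04 ± 0.761, and the zinc finger gene Zfp617 at 4.97 ± 0.332 and 6.06 ± 0.394. A4galt, which builds the glycolipid globotriaosylceramide, stood at 5.0 ± 0.875 and 8.47 ± 2.46. All had an adjusted p of 0.9998 by limma. Of these 4 genes, the groups overlapped in A4galt alone.

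Several further genes stand among the 31 of the authors' deposited table and were picked from it after their values were seen. Ptx3, a pattern-recognition pentraxin, stood at 1.13, 1.72, 2.12 and 1.36 FPKM in WT against 2.17, 3.19, 4.0 and 3.86 in Chi3l1 ko (0.73 ± 0.17). Hsdl2, a peroxisomal dehydrogenase gene, stood at 24.1, 26.1, 23.9 and 26.3 FPKM against 35.4, 41.1, 33.1 and 42.7 (0.58 ± 0.30). Both had all knockout values above all WT values. Alox12e, an epidermal lipoxygenase gene, stood at 3.23, 4.16, 2.78 and 3.50 FPKM against 1.58, 1.98, 1.38 and 1.31 (−0.78 ± 0.32). Bdh1, the ketone body dehydrogenase gene, stood at 4.59, 3.59, 4.35 and 6.44 FPKM against 2.16, 2.86, 2.26 and 2.82 (−0.69 ± 0.21). The lysozyme gene Lyz1 stood at 39.4% of its WT mean and Depp1 at 29.4%. None of these genes passed limma on 12 libraries (adjusted p = 0.9998 for each) or on the 8 (adjusted p from 0.474 to 0.998). The unadjusted limma p of Hsdl2 was 0.0773 on 12 libraries and 0.000164 on the 8.

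Several genes of the circadian clock had values that did not overlap between the groups. The clock runs on ARNTL with CLOCK or NPAS2, which switch on Per, Cry, Nr1d and Dbp family genes. The products of the Per, Cry and Nr1d genes then restrain these activators. Of 18 listed genes 17 were tested and 0 were called. The unadjusted p was under 0.05 in 6 members, 3 higher (Per3 and Tef among them) and 3 lower (Npas2, Nfil3, Per1), against 1.63% of all genes. Groups did not overlap in 6 members, against 2.48% of all genes: 5 had higher values in Chi3l1 ko, among them Per3, Tef, Dbp and Cry2, and Npas2 had lower ones. The median of the circadian clock list was 0.20, beside 0.00298 for all genes, 0.13 without Chi3l1 ko 2 and 0.20 without WT 4, the library with the lowest list mean.

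Per3, a core repressor, stood at 1.29, 1.52, 1.52 and 1.16 FPKM in WT against 2.40, 2.73, 2.76 and 3.47 in Chi3l1 ko. The knockout mean was 207% of WT and the difference 0.69 ± 0.30 (adjusted p = 0.9998, limma). In the authors' deposited table Per3 has a log2 fold change of 1.05 at an adjusted p of 7.13e-08. The spread of Stat3 ko, at 4.26 FPKM on average with a high value in 1 library, enters the 12-library fit. In the 8-library limma fit the adjusted p was 0.474.

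The output genes Tef and Dbp, which bind D-boxes such as those in the Per3 sequence above, were highest in Chi3l1 ko 2. Tef stood at 1.93, 4.17, 3.21 and 2.48 FPKM in WT against 4.62, 10.8, 5.93 and 5.68 (0.95 ± 0.39). Dbp stood at 0.449, 1.88, 1.44 and 0.821 FPKM against 2.10, 7.30, 2.28 and 2.85 (1.03 ± 0.49). Stat3 ko held 15.9 FPKM of Tef and 19.2 of Dbp, and both were called there against the same WT libraries (adjusted p = 0.0124 and 0.00488, limma).

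The activators Npas2 and Arntl had lower mean values. Npas2 stood at 3.27, 2.59, 3.03 and 2.02 FPKM in WT against 1.65, 1.55, 1.85 and 1.56 in Chi3l1 ko (−0.48 ± 0.15). In Stat3 ko, at 0.733 FPKM, Npas2 was called lower than in the same WT libraries (−1.11, adjusted p = 0.00182, limma). Arntl stood at 2.83, 2.15, 2.91 and 3.33 FPKM against 2.06, 1.93, 2.35 and 1.504 (−0.36 ± 0.18), with overlap. Per1, a fast-responding repressor, stood at 40.7, 44.6, 36.1 and 9.79 FPKM in WT against 9.95, 9.86, 13.4 and 25.1. WT 4 and Chi3l1 ko 4 thus departed from their groups. Clock was near level (0.11 ± 0.12), as was Hlf (0.01 ± 0.14). The hour of collection of each library, which these genes follow, is not given in the sources used here.

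**Figure D3:**
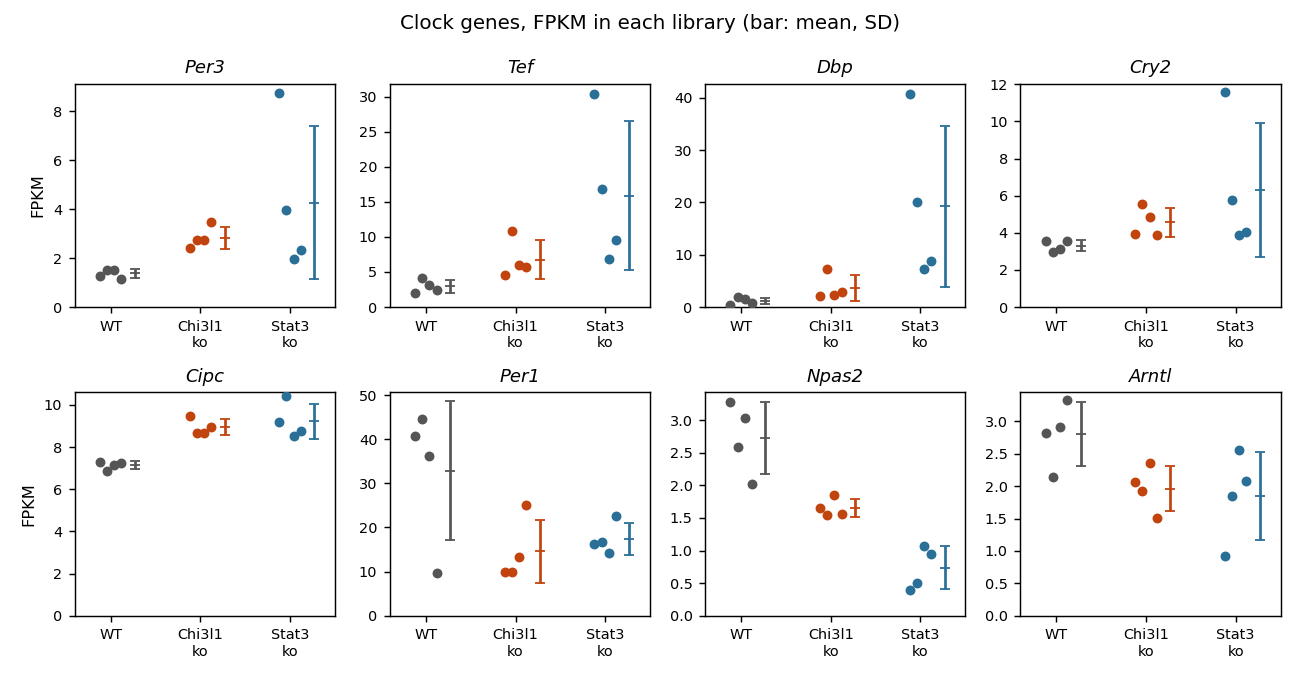
FPKM on the vertical axis, on a linear scale from 0, for 8 clock genes in single libraries of WT, Chi3l1 ko and Stat3 ko, with mean and SD as bars (n = 4). Per3, Tef, Dbp, Cry2 and Cipc have all 4 Chi3l1 ko points above the WT points, and Npas2 has them below; Per1 and Arntl overlap.

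Immediate-early and stress genes, which respond within minutes to growth factors or handling of tissue, had mostly lower values. Of 22 tested members 18 were lower, 5 of them at an unadjusted p under 0.05 (0.982% of all genes), and 0 were called. The median of the list was −0.18. Fos, which pairs with Jun in the AP-1 factor, stood at 42.3, 32.7, 42.7 and 34.6 FPKM in WT against 27.2, 24.1, 31.0 and 28.1 in Chi3l1 ko (−0.44 ± 0.15). Klf6, Fosl2 and Btg2 stood at 71.7%, 72.5% and 66.4% of their WT means. Jun was at −0.18 and Egr2 at 0.08. Fos was called lower in Stat3 ko, at 9.34 FPKM, and was higher in Chi3l1 ko than there by 1.49 ± 0.15 (adjusted p = 0.000236, limma).

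Genes under STAT3 control showed no common direction. Of 27 tested targets 14 were higher and 13 lower in Chi3l1 ko, with a median of 0.06 and 0 called. Without Chi3l1 ko 2 the median was −0.02. Besides Fos, an unadjusted p under 0.05 was found for Cebpd (18.1 ± 1.74 FPKM in WT, 13.9 ± 0.936 in Chi3l1 ko), a C/EBP factor of the acute phase, and for the survival gene Bcl2l1 (26.0 ± 6.99 and 18.2 ± 2.00). All 3 were lower in Chi3l1 ko, as were 0.982% of all genes at that threshold, and 0 targets were higher at it. In 2 targets the groups did not overlap, both with lower values in Chi3l1 ko, against 1.36% of all genes. Socs3, the feedback inhibitor of the pathway, stood at 10.1 ± 1.29 and 11.1 ± 3.57 FPKM. The serum amyloid gene Saa1 stood at 49.9, 62.1, 36.8 and 56.5 FPKM in WT against 78.5, 63.4, 134 and 38.9, and the iron-binding lipocalin gene Lcn2 at 1339 ± 87.6 against 1277 ± 214.

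The contrast of the knockouts set these genes apart. Saa1 was higher in Chi3l1 ko than in Stat3 ko by 5.89 ± 0.31, Lcn2 by 3.03 ± 0.31 and the milk gene Wap by 4.07 ± 0.33 (adjusted p = 2.87e-06, 0.000211 and 6.37e-05, limma). Over all tested genes this contrast called 8.0% higher and 5.19% lower in Chi3l1 ko. Of 27 STAT3 targets, 10 were called higher in Chi3l1 ko and 1 lower. Of 22 milk and alveolar genes 13 were called higher and 0 lower, and of 23 genes of the unfolded protein response 16 and 0. Other lists went the other way: of 17 dendritic cell genes 0 were called higher and 10 lower, of 12 genes of cytotoxic lymphocytes and NK cells 0 and 6, and of 15 components and enzymes of neutrophil extracellular traps 2 and 6. Against WT, 0 genes of these 6 lists were called in Chi3l1 ko.

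The chitinase-like family and the binding partners of CHI3L1 were then examined. Of 20 listed genes 11 were tested, and Chil1 alone was called. Chit1, the chitotriosidase gene that lies 30.6 kb from Chil1, stood at 26.8, 13.7, 24.99 and 31.7 FPKM in WT against 15.7, 8.15, 11.6 and 19.1 (−0.79 ± 0.56), with overlap. Chil3 was under 1 FPKM in all 8 libraries and Chil4 was listed at 0 in all 8. Receptor genes differed little. Il13ra2 was at most 0.0737 FPKM, Tmem219 stood at 8.29 ± 0.679 and 7.42 ± 1.27 FPKM, Cd44 at 16.9 ± 1.73 and 18.3 ± 1.21, and the galectin-3 gene Lgals3 at 45.2 ± 3.14 and 38.9 ± 6.19. Il13ra1 values did not overlap, with a knockout mean of 106% of WT, at 19.3 ± 0.358 and 20.4 ± 0.651. Sdc1, the syndecan gene, stood at 33.1 ± 5.88 and 34.4 ± 2.73. Of 17 tested genes of pathways linked to CHI3L1, 10 were higher and 7 lower, with a median of 0.02 and 0 called.

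Neutrophil genes were scarce. Of 31 listed markers 14 were tested, 6 higher and 8 lower, with a median of −0.03 and 0 called. The defining genes Ly6g (at most 0.0594 FPKM), Mpo (at most 0.146) and Cxcr2 (at most 0.132) were near 0 in all 8 libraries. In bulk tissue, fewer cells of a type and less RNA per cell cannot be told apart. S100a8, a calprotectin subunit, stood at 30.1, 32.0, 29.7 and 25.4 FPKM in WT against 24.2, 23.7, 32.1 and 25.1 in Chi3l1 ko (−0.16 ± 0.40). Its partner S100a9 was at 0.953 ± 0.691 and 0.983 ± 0.474. The G-CSF receptor gene Csf3r stood at 1.96 ± 0.524 and 2.16 ± 0.697. The decoy receptor gene Il1r2 was the single marker at an unadjusted p under 0.05 (1.01 ± 0.340 against 0.422 ± 0.177). The most abundant listed markers, Lcn2, Ltf (1127 ± 209 and 1409 ± 433) and G0s2 (112 ± 28.6 and 140 ± 43.2), are also expressed by epithelium or fat.

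Of 22 genes of NET components and enzymes 15 were tested, with a median of −0.01 and 0 called. Padi4, the enzyme that citrullinates histones in NET release, stood at 4.38, 3.53, 3.82 and 4.54 FPKM in WT against 2.75, 2.66, 2.42 and 2.99 in Chi3l1 ko. All 4 knockout values lay below all WT values, at 66.4% of the mean. The difference of −0.45 ± 0.23 did not pass in the 12-library fit (95% interval −0.95 to 0.05, limma adjusted p = 0.9998), which the spread of Stat3 ko enters. With limma on the 8 libraries the unadjusted p was 0.000781 and the adjusted p 0.71. The authors' deposited table lists Padi4 at a log2 fold change of −0.58 and an adjusted p of 0.0169. Stat3 ko, at 1.36 FPKM, was called lower than the same WT libraries. Padi4 was the only member of the list whose groups did not overlap. The NADPH oxidase genes Cybb (12.01 ± 2.24 and 11.8 ± 0.848), Cyba (73.2 ± 25.3 and 67.7 ± 16.5) and Rac2 (10.6 ± 3.46 and 10.47 ± 1.64) had near-equal means.

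Of 19 chemokines and cytokines that draw neutrophils only 6 were tested, with a median of 0.07. Cxcl1 stood at 3.72 ± 0.629 and 3.43 ± 0.223 FPKM (−0.08 ± 0.14), while Cxcl2 and Cxcl5 were under 1 FPKM in all 8 libraries. Csf1, a macrophage growth factor, stood at 14.5 ± 1.91 and 16.1 ± 2.07. Tnf stood at 1.67 ± 0.754 and 2.61 ± 0.533, and the platelet chemokine gene Pf4 at 6.30 ± 2.12 and 6.91 ± 4.46.

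T cell genes did not separate the groups. Of 21 tested markers 13 were higher and 8 lower, with a median of 0.08 and 0 called. Without WT 2, the WT library with the highest T cell values, the median was 0.26, and without Chi3l1 ko 3, its counterpart, it was −0.02. Cd8a, the coreceptor of cytotoxic T cells, stood at 2.71, 5.62, 2.13 and 2.14 FPKM in WT against 3.45, 3.83, 7.11 and 3.53 in Chi3l1 ko. Of the 4 WT values of Cd8a 3 lay below every knockout value, and WT 2 lay among them. The difference was 0.43 ± 0.44 (95% interval −0.55 to 1.40). Cd3e stood at 1.14 ± 0.322 and 1.63 ± 0.343 FPKM, and Cd4 at 1.90 ± 0.8292 and 1.76 ± 0.524. Trbc2, Ltb and Tcf7 stood at 99.1%, 112% and 83.3% of their WT means.

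Cytotoxic genes were likewise mixed. Of 12 tested members 9 were higher and 3 lower, with a median of 0.06. Gzmb, the granule protease granzyme B, stood at 1.40, 2.27, 1.94 and 2.47 FPKM in WT against 1.596, 0.913, 0.768 and 0.780 in Chi3l1 ko, 50.1% of WT with overlap. Its difference was −0.59 ± 0.18 (unadjusted p = 0.00736, adjusted p = 0.9998, limma). The pore-forming perforin gene Prf1 stood at 0.950 ± 0.570 and 1.28 ± 0.513, and Nkg7 at 8.04 ± 5.32 and 9.36 ± 3.75. Xcl1 stood at 2.48 ± 0.587 and 3.64 ± 1.75, and Ccl5 at 11.7 ± 3.71 and 13.1 ± 5.49.

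Chemokines that draw T cells had a median of 0.17 over 15 tested genes, with 10 higher and 5 lower. Ccl3 and Ccl4, also known as macrophage inflammatory proteins, stood at 1.46, 3.85, 1.58 and 2.11 FPKM and at 1.70, 5.49, 2.07 and 2.06 in WT. In Chi3l1 ko Ccl3 stood at 2.47, 3.60, 5.83 and 3.51 and Ccl4 at 4.51, 4.18, 6.15 and 3.23. Both had an unadjusted p under 0.05 with overlap through WT 2. Cxcl9 (92.7 ± 42.4 and 106 ± 17.1) and Cxcl10 (20.6 ± 9.11 and 21.9 ± 6.17) were lowest in WT 3. Without WT 3 the median of the list was −0.03.

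All 22 tested genes induced by interferon gamma had higher means in Chi3l1 ko, with a median of 0.22, 0 called and 0 at an unadjusted p under 0.05. The list mean in log2(FPKM + 1) was 4.98, 5.60, 4.52 and 5.25 in WT against 5.27, 5.31, 5.86 and 4.99 in Chi3l1 ko. WT 3 had the lowest and Chi3l1 ko 3 the highest value, and the groups overlapped. Without WT 3 the median was 0.08, and without Chi3l1 ko 3 it was 0.09. Genes induced by type I interferon leaned the other way, with 26 of 33 lower and a median of −0.10. WT 4 held the highest values there, as in Rsad2 (15.8, 19.6, 12.02 and 45.8 FPKM in WT), and without WT 4 the median was 0.01.

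Antigen presentation genes had higher means too. Of 10 MHC class II genes 8 were higher, with a median of 0.32 and 0 called. That median of MHC class II genes moved with single libraries, to 0.13 without Chi3l1 ko 3, 0.52 without Chi3l1 ko 4, 0.21 without WT 1 and 0.56 without WT 2. The invariant chain gene Cd74 stood at 1284, 2409, 1200.4 and 1129.8 FPKM in WT against 1829, 1947, 2762 and 1464 in Chi3l1 ko. WT 2 stood above 3 of the 4 knockout values, and the other WT values below all of them. H2-DMb1, which helps load peptides, was at 14.7 ± 4.56 and 21.4 ± 4.17 FPKM (unadjusted p = 0.0327). MHC class I genes were higher in 19 of 20, with a median of 0.10 that was 0.002 without WT 3. In checkpoint and regulatory T cell genes the median was 0.01. Cd274, which encodes PD-L1, stood at 4.45 ± 1.51 and 5.61 ± 1.49, Lgals9 at 196 ± 48.1 and 165 ± 22.6, Cd276 at 20.7 ± 1.77 and 19.2 ± 2.23, and Vsir at 8.18 ± 1.99 and 8.72 ± 1.32.

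Macrophage genes stood level. Of 25 tested members 10 were higher and 15 lower, with a median of −0.05 and 0 called. Apoe (722 ± 266 and 747 ± 123 FPKM), Lyz2 (391 ± 131 and 383 ± 30.1) and C1qa (248 ± 88.2 and 232 ± 57.0) had near-equal means and a wider spread in WT, where WT 2 was highest. B cell, dendritic cell and alternative macrophage lists had medians of −0.03, −0.02 and 0.01.

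Epithelial lists stood level as well. Luminal genes had a median of −0.05 over 24 tested genes, basal genes 0.06 over 13, and milk and alveolar genes −0.01 over 22, with 0 called. The beta-casein gene Csn2 was uneven within both groups, at 85.9, 499, 144 and 33.6 FPKM in WT and 185, 236, 6.43 and 44.5 in Chi3l1 ko. Of 33 proliferation genes 32 had lower means, with a median of −0.16, 0 called and 0 at an unadjusted p under 0.05. Pcna, the DNA clamp, stood at 62.7, 55.6, 54.6 and 67.1 FPKM in WT against 50.5, 53.8, 51.0 and 53.2, and the cycling marker Mki67 at 16.9 ± 2.71 and 16.1 ± 2.88. The list mean was highest in WT 4, and without WT 4 its median was −0.05. Cdkn1a, the p21 inhibitor of the cell cycle, stood at 10.1, 10.4, 10.54 and 10.8 FPKM in WT against 6.69, 8.99, 8.35 and 7.44 (−0.38 ± 0.17), without overlap. Pgf, a VEGF family ligand, stood at 5.03, 2.59, 3.66 and 2.65 FPKM against 1.47, 1.51, 1.57 and 2.32 (−0.70 ± 0.20), also without overlap.

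**Figure D4:**
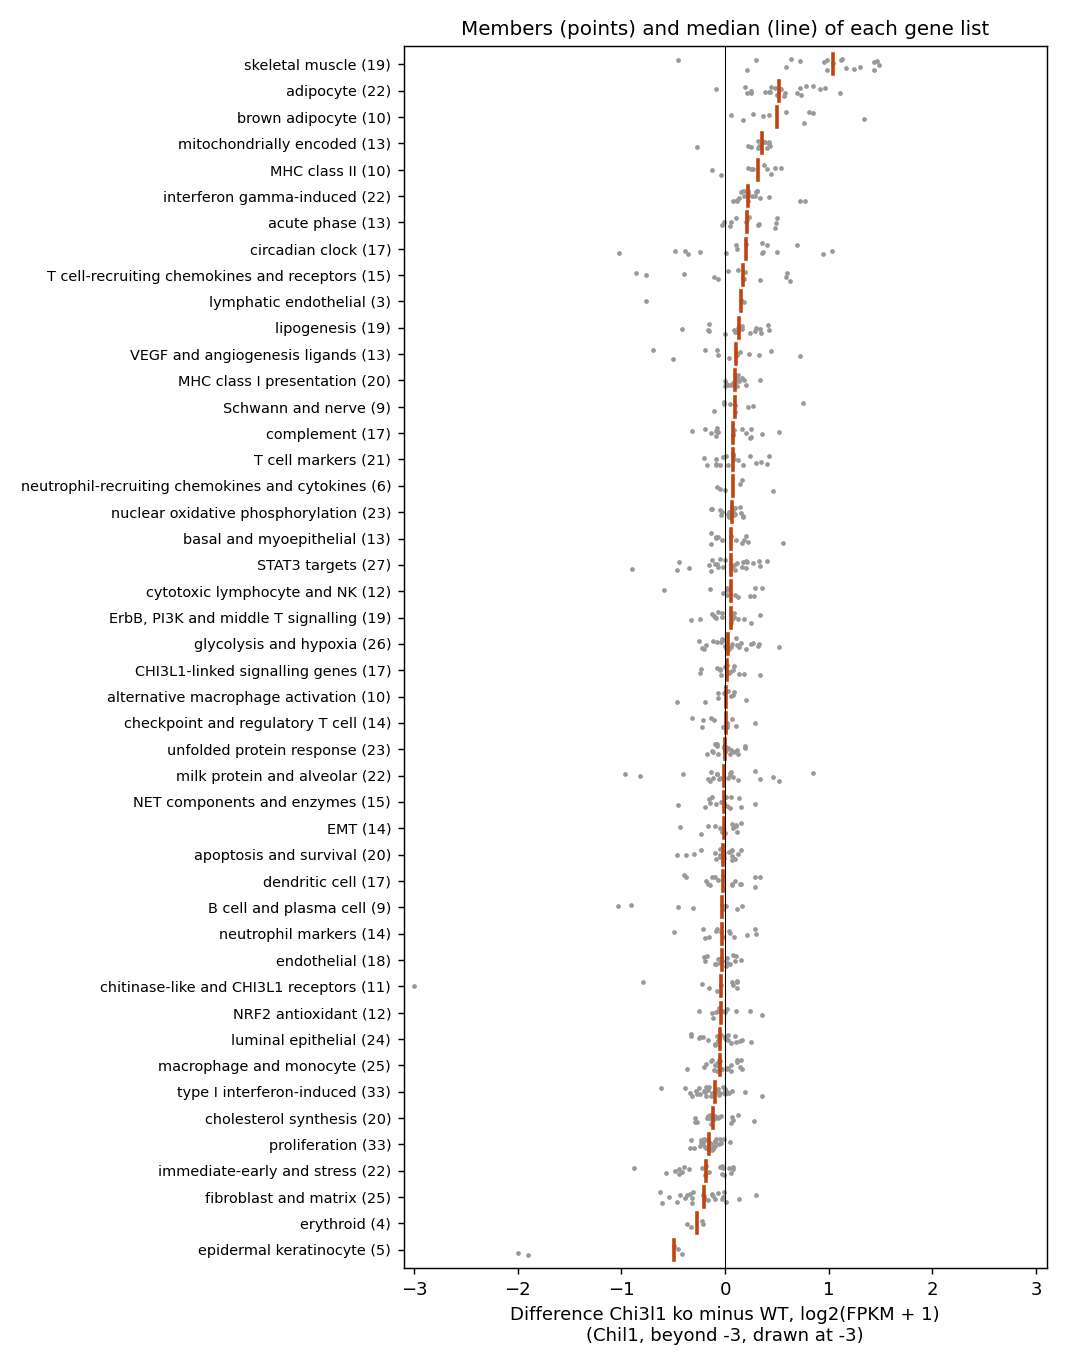
Each row is a gene list with the number of tested members in brackets, and each grey point is a member's Chi3l1 ko minus WT difference in log2(FPKM + 1), with the median as a line. Most medians lie near 0; skeletal muscle (1.04), adipocyte (0.52) and brown adipocyte (0.50) lie furthest to the right and epidermal keratinocyte, a list added after values were seen, at −0.50.

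The widest list medians belonged to tissues whose marker genes varied widely between libraries of the same group. Skeletal muscle genes had a median of 1.04, with 18 of 19 higher and 0 called. Acta1, skeletal actin, stood at 5.03, 1224, 604 and 15.9 FPKM in WT against 15.7, 3693, 127 and 505 in Chi3l1 ko. Without Chi3l1 ko 2 the median was −0.19 and without WT 1 it was 0.09. Adipocyte genes had a median of 0.52, which was −0.07 without Chi3l1 ko 2. Brown adipocyte genes had a median of 0.50, which was −0.19 without that library. Ucp1, the uncoupling protein of brown fat, stood at 97.7 FPKM in Chi3l1 ko 2, at most 0.369 in the other 3 knockouts and at most 2.30 in WT. Chi3l1 ko 2 also held the highest Tef and Dbp values given above, which were higher than in WT in the other 3 knockouts as well. The part of muscle and fat in other differences was not tested.

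Keratins of the epidermis marked WT 1 and WT 3. Krt10, a keratin of differentiating epidermis, stood at 21.4, 2.33, 35.9 and 1.29 FPKM in WT against 1.77, 1.65, 1.47 and 0.795 in Chi3l1 ko. Krt77 had 679, 1, 1343 and 0 reads in WT and 0 in all Chi3l1 ko libraries. Krt15 stood at 16.4, 0.329, 24.5 and 0.739 FPKM in WT against 0.333 to 0.482 in Chi3l1 ko. In each of these genes WT 2 and WT 4 lay close to the knockouts. The authors' deposited table lists Krt77, Krt1 and Krt15 among its 20 lower genes. Without WT 1 and WT 3, limma called 2 genes lower, Chil1 and Mir99a.

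**Figure D5:**
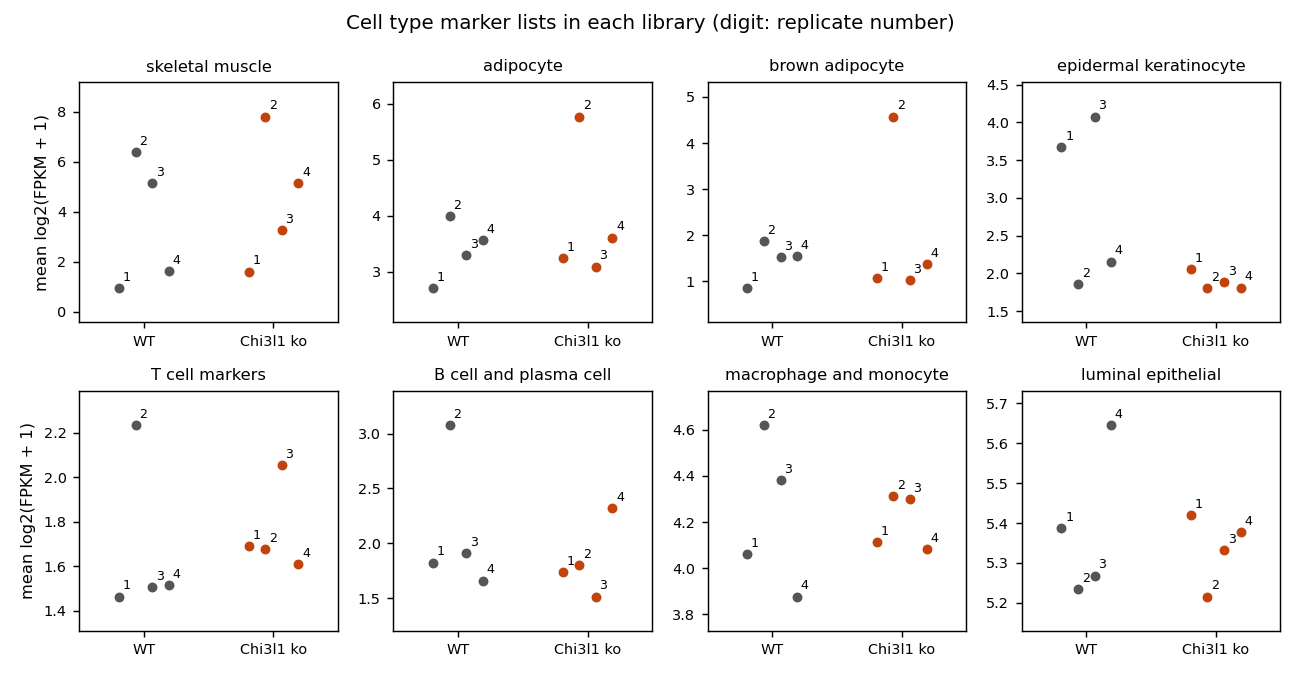
Mean log2(FPKM + 1) over the tested members of 8 marker lists, for each WT and Chi3l1 ko library, with the replicate number beside each point; vertical axes do not start at 0. Chi3l1 ko 2 stands apart in brown adipocyte genes (4.57 against at most 1.38 in the other knockouts), WT 1 and WT 3 in epidermal keratinocyte genes (3.67 and 4.08), and WT 2 in T cell markers (2.23).

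Genes beside the targeted gene were examined next. Within 5 Mb of Chil1, 86 other genes were tested and 0 were called. Of these, 3 (3.49%) had an unadjusted p under 0.05, against 1.63% of all tested genes. In 4 the groups did not overlap, all with lower values in Chi3l1 ko, against 1.36% of all tested genes in that direction. Btg2, an antiproliferative gene 103 kb upstream, stood at 25.9, 28.1, 24.98 and 24.4 FPKM in WT against 21.5, 15.5, 15.6 and 15.97 in Chi3l1 ko (−0.58 ± 0.20). Rabif, a chaperone of Rab GTPases 304 kb downstream, stood at 16.9, 15.4, 13.9 and 15.5 FPKM against 8.59, 10.6, 10.4 and 11.4 (−0.55 ± 0.13). The snoRNA gene Gm25612 lies inside the span of Rabif, so their reads may be shared. It stood at 3.67 ± 1.32 and 0.771 ± 0.774 FPKM. The immediate neighbours Mybph and Adora1 were at 0.38 ± 0.77 and −0.38 ± 0.61. The authors' deposited table lists both Btg2 and Rabif at an adjusted p under 0.05.

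Over the whole of chromosome 1, 20 of 792 tested genes besides Chil1 (2.53%) had an unadjusted p under 0.05, against 1.56% on the other chromosomes. They included Hes6 (91411483 to 91414038), Ube2f (91250304 to 91290337) and Npas2 (39193731 to 39363236), all far from Chil1. Between 80 and 90 Mb 7 of 49 did, 5 of them with starts from 84963669 (Gm15433) to 85526690 (Gm7592). Gm7592, annotated as a pseudogene, stood at 2.68, 4.06, 4.70 and 6.50 FPKM in WT against 1.03, 0.866, 2.48 and 1.07 (−1.22 ± 0.33), and 75.8% of its 50-base stretches occur in other genes.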

How the data were processed

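RNA was measured in 12 libraries, 4 each of MIC WT, MIC Chi3l1 ko and MIC Stat3 ko glands. The authors deposited FPKM values for 54532 genes and a comparison table with whole counts, normalized counts (a signal divided by a library factor), log2 fold changes and p-values for 824 genes at an unadjusted p under 0.05. STAR, HTSeq and Trimmomatic are named beside limma and edgeR, and GRCm38 beside mm10, per the submitters' processing notes, which give neither version nor role. The 27 gene names turned into dates were restored by gene ID. Whole reads were recovered from FPKM, gene length and library total, and 100% of values came out whole within 0.01 read. Of 55832 deposited counts compared, taken from both comparison tables, 0 differed.

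limma 3.58.1 in R 4.3.3 was fitted with an intensity trend to log2(FPKM + 1) of the 12 libraries as 3 group means, with 9 residual degrees of freedom and two-sided Benjamini-Hochberg adjusted p under 0.05 over 13643 genes. Errors of differences are moderated standard errors of the 12-library fit, so the spread of all 3 groups enters them. Errors of levels are SDs (n = 4), and fold changes on this scale understate those of low genes. A contrast of Chi3l1 ko against Stat3 ko from the same fit was added after the data were seen. Comparisons with WT share the 4 WT libraries. The members and gene lists were chosen with earlier results of these data known. Named genes were Chil1 and Stat3, up to 12 called genes per direction without overlap, filled to 8 with the lowest unadjusted p at a mean of at least 5 FPKM in the higher group, from each list the member with the lowest p if under 0.01, and the 3 most abundant members of 8 lists. Other genes were named after their values were seen, and 1 gene that the rule names is not reported here. Shared 50-base stretches were counted in GENCODE transcripts. Alternatives were another pseudocount (0.1), filter, scaling, samples in the fit, the recovered counts in edgeR 4.0.16 or in DESeq2 1.42.0, and each library left out in turn. A limma fit of the same form was tested on counts simulated from the WT means. That simulation did not cover edgeR, DESeq2 or the permutation tests.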

Additional observations from a re-analysis of the deposited data

Results flagged for a closer look

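In 17 of 178 groups of 4 values tested, 1 library stood further from the other 3 than Dixon's 95% critical value for the gap over the range allows, where chance flags about 1 in 20. All values here are log2(FPKM + 1). WT 3 stood low in Ltf (9.678, the others 10.22 to 10.32) and in Xcl1 (1.385, the others 1.887 to 1.959). WT 2 stood high in Cyba (6.806), Trbc2 (4.235) and Ltb (3.762), and in the means of the T cell list (2.233, the others at most 1.516), the MHC class II list (5.133) and the checkpoint and regulatory T cell list (2.998). Chi3l1 ko 3 stood high in Ltb (3.786), Ccl5 (4.479) and the checkpoint and regulatory T cell list (2.821). Chi3l1 ko 2 stood high in the brown adipocyte list (4.573, the others at most 1.376), the lipogenesis list (5.766), the basal and myoepithelial list (3.169) and the alternative macrophage list (3.394). Chi3l1 ko 4 stood high in Pgf (1.729), where the other knockouts were at most 1.363 and all 4 lay below WT. WT 4 stood low in the circadian clock list (2.516, the others 2.802 to 2.83).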

How the results depend on the processing

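Chil1 kept its direction and its call under all alternatives run. limma called 1 gene lower and 0 higher under the other pseudocount, filters, scaling, the 8-library fit and each left-out library, as did edgeR. DESeq2 called 8 lower on 12 libraries, 10 higher and 19 lower on the 8 libraries, and 12 higher and 24 lower on the 8 without a filter, the 8-library count fits being chosen after seeing the data. Without WT 1 and WT 3, an alternative chosen after seeing the data, limma called 2 lower. The cause of these differences was not tested. Genes without overlap numbered 339, against 575 with no filter, 223 at a mean of at least 5 FPKM, 574 to 835 with 1 library left out and 1314 without WT 1 and WT 3, where more or fewer genes or fewer samples are compared. Of 756 recomputed values of named genes, 730 kept their side of the threshold, 26 passed it and 0 changed sign after a call. Of 871 recomputed list medians, 14 moved by more than 1 SD between libraries. No paired analysis was possible because the labels give the groups no shared replicate number, litter, batch or day.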
